A study of Mus musculus with 2 samples.

Results

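Ribosome biogenesis genes were taken as 40 listed mouse symbols, chosen by name from nucleolar rRNA processing and RNA polymerase I. All 40 were found among the 27998 gene identifiers of both matrices. No measured value served as a criterion, but earlier results of these data were known when the choice was made. They were followed in leukaemia cells from mouse primary leukaemia that carry the MLL-AF9 fusion, an oncoprotein of acute myeloid leukaemia, together with the nuclease Cas9, and that grew in RPMI medium with serum and mouse IL-3. In 1 library the cells held an sgRNA (single guide RNA) against Renilla luciferase, a control with no target in the mouse genome, and in 1 library they held an sgRNA that cuts Jmjd1c in the stretch coding for its Jumonji domain. The first is called the Renilla library and the second the Jumonji library. The sources used here do not say whether a culture was a clone or a pool, or how long it had carried its guide. The comparison asked how the transcriptome of these cells differs when the Jumonji domain of this putative histone demethylase is targeted.

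A ribosome is built mostly in the nucleolus. There RNA polymerase I transcribes the long ribosomal RNA precursor, small nucleolar ribonucleoproteins (snoRNPs) modify and help cleave it, and separate sets of assembly factors shape the small and the large subunit before export. Transcription of many of these factors follows growth signals and the transcription factor MYC, and in the myeloid lineage nucleoli are large in dividing precursors and become small as the cells mature.

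The values are unique molecular identifiers (UMIs), tags that count single RNA molecules at their 3′ end, so that a transcript counts once whatever its length. Kept cells numbered 608 in the Renilla library, with 14418743 UMIs in all and a median of 23528, and 575 in the Jumonji library, with 12809661 UMIs and a median of 22123. No barcode was shared. With 1 library per condition there is no spread between cultures to test against, so no difference here has a test, and fewer cells of a state and less RNA per cell are separated only where cells are grouped. Levels are in CPM, a gene's UMIs scaled to the same total in each library, and each log2 ratio has an exact 95% interval that covers counting error only. A gene was called measured with at least 100 UMIs over the groups compared. Jmjd1c itself had 140 CPM in the Renilla and 112 CPM in the Jumonji library, a log2 ratio of -0.33 (-0.42 to -0.23), and 3′ counts do not read the edited site. T cell markers were at 0 for 5 of 5 genes in both libraries. The erythroid list summed to 45 and 27 UMIs with 3 of 6 genes at 0, the B cell list to 27 and 11 with 3 of 5 at 0, the stromal list to 0 and 3 with 3 of 5 at 0, and the mast cell and basophil list to 545 and 435 with 1 of 5 at 0. The progenitor list (Hoxa9, Meis1, Cd34, Kit and Myb) summed to 865 and 1025 CPM, with none of its genes at 0. Of this list Cd34 alone was higher in the Jumonji library, at 333 and 586 CPM. The other 4 had ratios below 0, of which 2 had an interval wholly below 0, and the median of the list was -0.11.

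Nearly all members were lower in the Jumonji library. Their sum was 5720 CPM in the Renilla library and 4133 CPM in the Jumonji library, which is 1.38-fold lower (log2 -0.47, from -0.48 to -0.45). All 40 were measured and 39 had a ratio below 0, against 56.2% of all 8959 measured genes. An interval wholly below 0 was found for 37 members and for 2851 of these 8959 genes. At or below 0.8 of their Renilla level were 32 members, against 23.5% of all measured genes, and at least 1.5-fold lower were 9, against 7.89%. No member was higher by as much. The count of members at least 1.5-fold lower was 17 after thinning every cell to 10000 UMIs and 1 when ratios were averaged within clusters of cells. The median ratio was -0.46, with quartiles of -0.58 and -0.34, and over all measured genes it was -0.06. The ratios ran from -1.30 for Polr1b to 0.10 for Ddx18. Per kept cell, the members together gave 135.6 UMIs in the Renilla and 92.1 in the Jumonji library.

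**Figure D1:**
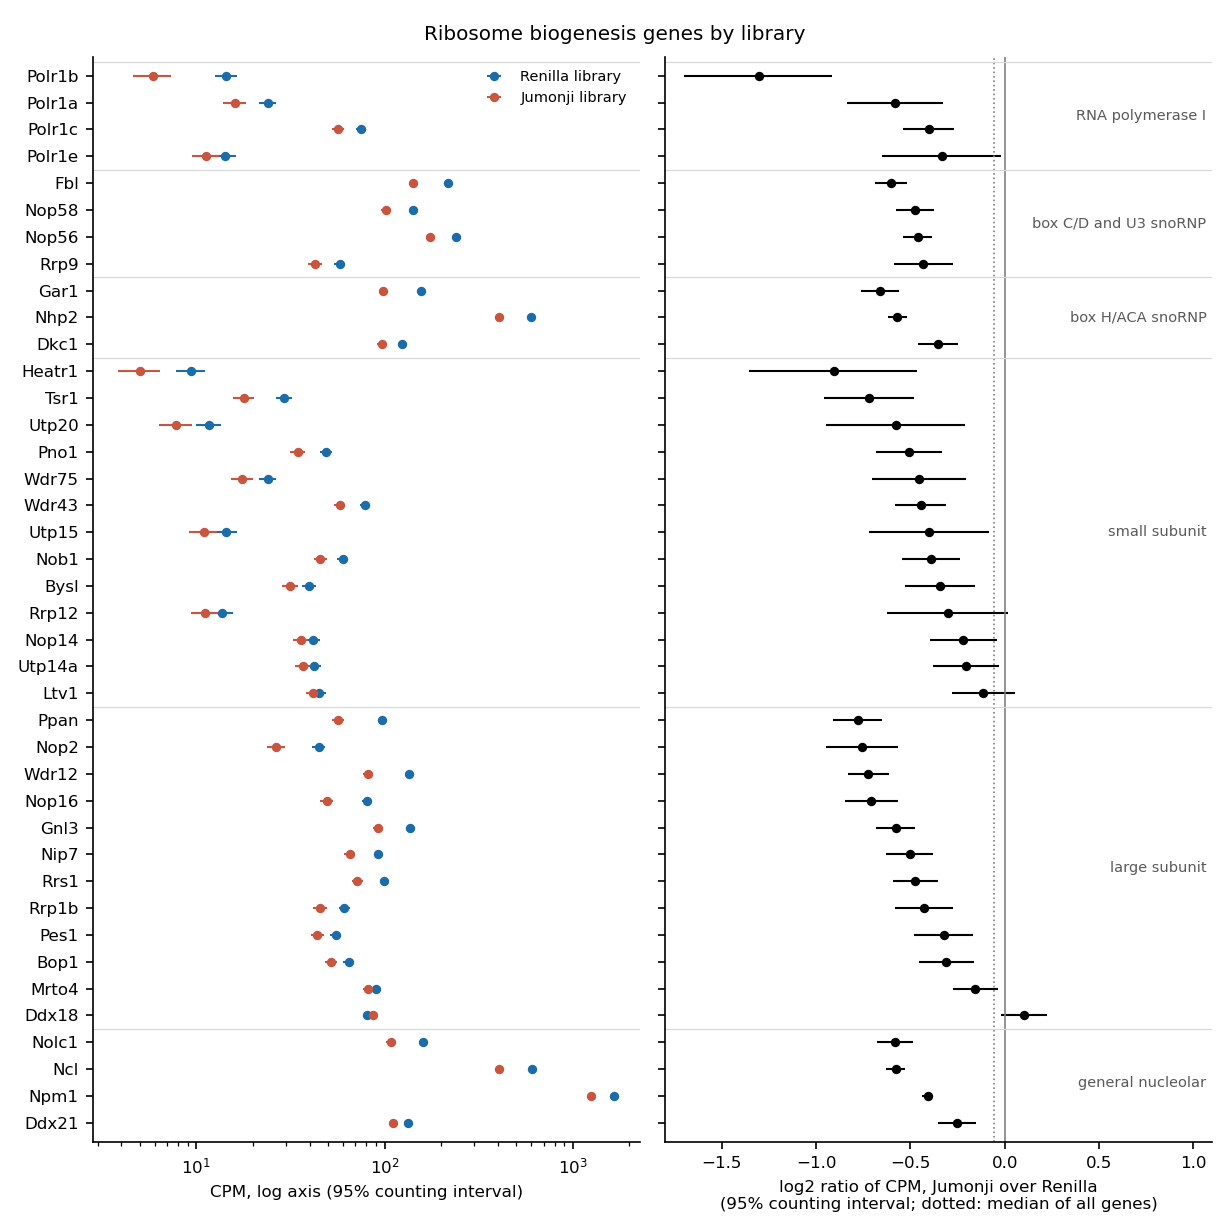
Left, level of each member in CPM (log axis) in the Renilla (blue) and the Jumonji (red) library; right, log2 ratio of Jumonji over Renilla, with bars for 95% counting intervals, a solid line at 0 and a dotted line at the median of all measured genes (-0.06). Within each role the genes are sorted by ratio, and Ddx18 is the member whose red point lies to the right of its blue point.

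The cell make-up moved with this difference. The 19 usable genes of a list of 20 late myeloid maturation genes (such as Lyz2, Ctss and Tyrobp) summed to 3211 CPM in the Renilla and 8020 CPM in the Jumonji library, and each of its 18 measured genes was above its Renilla level by 1.5-fold or more. The 5 primary granule genes (Mpo, Elane, Prtn3, Ctsg and Ms4a3) were all lower, at 5221 and 1808 CPM. Cells called G1 made up 10.5% of the Renilla and 27.5% of the Jumonji cells after thinning to 10000 UMIs (exact binomial intervals 8.16 to 13.3% and 23.7 to 31.6%), and 14.0% and 35.7% of all kept cells without thinning. When cells with a like share of maturation RNA were set side by side, the members' direction turned, as given with the cell states.

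The E-box CACGTG, the letters that MYC and its partner MAX are known to bind, was looked for in the promoters because the members moved together. RefSeq windows on GRCm38.p6, with 250 bases before and 50 after the start, were at hand for 35 of the 40 members. Bop1, Rrs1, Npm1, Fbl and Rrp12 had none in the table. The letters occurred in 7 of the 35 windows (20%), in 12.5% of 6955 windows of measured genes, in 8.09% of 27025 windows of all genes, and in 19.8% of 86 windows of other ribosome biogenesis factors. The 7 stretches are shown, 5′ to 3′ on the gene's strand, with the E-box in capitals, to show the letters and where they lie about the start.
Nop2: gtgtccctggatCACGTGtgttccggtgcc
Ltv1: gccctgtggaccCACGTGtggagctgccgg
Pes1: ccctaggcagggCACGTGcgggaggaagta
Pno1: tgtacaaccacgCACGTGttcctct
Tsr1: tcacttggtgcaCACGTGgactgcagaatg
Utp20: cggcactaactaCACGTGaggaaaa
Wdr43: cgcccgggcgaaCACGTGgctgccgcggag
The Nop2 stretch lies at chr6:125131811-125131840 (plus strand) before the start, and it was the 1 member with the letters there (2.86% of 35, against 10.4% of the windows of measured genes). The other 6 lie after the start, at chr10:13193092-13193121 (minus strand, Ltv1), chr11:3963965-3963994 (plus, Pes1), chr11:17211540-17211564 (minus, Pno1), chr11:74898092-74898121 (plus, Tsr1), chr10:88826765-88826789 (minus, Utp20) and chr17:71616220-71616249 (plus, Wdr43). The related letters CACGCG, searched on both strands, occurred in 12 of the 35 windows (34.3%), in 21.3% of windows of measured genes and in 30.2% of windows of the other factors. Before the start alone they occurred in 6 of the 35 (17.1%), in 17.5% of windows of measured genes and in 18.6% of those of the other factors. The 7 members with an E-box had a median ratio between the libraries of -0.51, the 28 with a window and no E-box -0.46, and the 5 without a window -0.41. A match of letters describes the window and does not show a bound site.

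The 4 subunit genes of RNA polymerase I were all at or below 0.8 of their Renilla level, and their sum was 127.7 CPM in the Renilla and 89.9 CPM in the Jumonji library (log2 -0.51, from -0.61 to -0.40). Polr1b, the second largest subunit (chr2:129100995-129126594, plus strand), had 208 UMIs or 14.4 CPM in the Renilla and 75 UMIs or 5.85 CPM in the Jumonji library. This was the lowest ratio of any member, -1.30 (-1.70 to -0.91), a 2.46-fold difference. Polr1a, the largest subunit, had 23.9 and 16 CPM, a ratio of -0.58 (-0.84 to -0.33). Polr1c, which RNA polymerase III also uses, was the most abundant of the 4, at 75.2 and 56.8 CPM (-0.40, from -0.54 to -0.27). Polr1e, a subunit that works in initiation and elongation, had 14.1 and 11.2 CPM, and its interval reached nearly to 0 (-0.65 to -0.02).

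The snoRNP proteins were lower throughout. Box C/D snoRNPs guide ribose methylation and, with U3, early cleavage of the precursor, and their 4 members summed to 655 CPM in the Renilla and 461 CPM in the Jumonji library (log2 -0.51, from -0.55 to -0.46). Fbl, the methyltransferase fibrillarin (chr7:28169710-28179269, plus strand), had 216 and 142 CPM, a ratio of -0.60 (-0.69 to -0.52). Its partners Nop56 and Nop58, which form the core of the particle, had 240 and 174 CPM (-0.46) and 141 and 101 CPM (-0.47). Rrp9, a protein of the U3 particle, had 57.8 and 42.9 CPM (-0.43).

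Box H/ACA snoRNPs guide pseudouridine formation, and their 3 members summed to 881 and 600 CPM (log2 -0.55, from -0.59 to -0.51), the lowest summed ratio of the 6 roles. Gar1, a core protein of the particle, had 156 CPM in the Renilla and 98.7 CPM in the Jumonji library (-0.66, from -0.76 to -0.56). Nhp2, a second core protein, gave 14.3 UMIs per cell in the Renilla and 9.02 in the Jumonji library, at 601 and 405 CPM (-0.57, from -0.62 to -0.52). Dkc1, the pseudouridine synthase dyskerin, differed less, at 124 and 97.0 CPM (-0.35, from -0.46 to -0.25).

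The small subunit factors included several rare genes with wide counting intervals. Their 13 members summed to 459 CPM in the Renilla and 354 CPM in the Jumonji library (log2 -0.38, from -0.43 to -0.32). All 13 ratios were below 0, against 56.2% of all measured genes. At or below 0.8 of their Renilla level were 9 genes, against 23.5%, and at least 1.5-fold lower were 2, against 7.89%. Heatr1, an early processome protein that also serves RNA polymerase I transcription, was the rarest member, with 135 and 64 UMIs (9.36 and 5.0 CPM), and had a ratio of -0.91 (-1.36 to -0.47). Tsr1, a late assembly factor of the small subunit, had 29.4 and 17.9 CPM (-0.72, from -0.96 to -0.48). The processome proteins Wdr43, Wdr75, Utp15 and Utp20 had ratios of -0.45, -0.45, -0.40 and -0.58. Pno1, Nob1 and Bysl act on the later precursor, Nob1 as the nuclease that makes the 3′ end of its RNA, and had ratios of -0.51, -0.39 and -0.34.

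The remaining 4 small subunit members lay closest to even levels. Utp14a had 42.4 CPM in the Renilla and 36.8 CPM in the Jumonji library (-0.20), and Nop14, which joins the early precursor, had a ratio of -0.22. Rrp12, an export factor, had 13.7 and 11.1 CPM, and Ltv1, which is released late in maturation, had 45.0 and 41.6 CPM. The intervals of these last 2 genes included 0 (-0.62 to 0.02 for Rrp12, and -0.28 to 0.05 for Ltv1), so at this depth no difference was detectable for them.

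The 12 large subunit factors held both clear differences and the 1 member that did not go down. Their sum was 1039 CPM in the Renilla and 753 CPM in the Jumonji library (log2 -0.46, from -0.50 to -0.43). At or below 0.8 of their Renilla level were 9 genes, against 23.5% of all measured genes, and at least 1.5-fold lower were 4, against 7.89%. Ppan, an early assembly factor, had 96.9 and 56.4 CPM (-0.78, from -0.91 to -0.65). Nop2, an RNA methyltransferase of the large subunit and the member with an E-box before its start, had 44.8 and 26.5 CPM (-0.76, from -0.95 to -0.56). Wdr12 had 135 and 81.8 CPM (-0.72) and Nop16 had 80.2 and 49.2 CPM (-0.71).

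Wdr12 works in a complex with Pes1 and Bop1, and the 3 genes did not differ to the same degree. Pes1 had a ratio of -0.32 (-0.48 to -0.17) and Bop1 of -0.31 (-0.46 to -0.16), both outside the interval of Wdr12 (-0.83 to -0.61). Gnl3, the GTP-binding protein nucleostemin, had 137 and 92.0 CPM (-0.58, from -0.68 to -0.47). The assembly factors Nip7, Rrs1 and Rrp1b had ratios of -0.50, -0.47 and -0.43.

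Mrto4, a nuclear relative of the ribosomal stalk protein P0, had 90.5 and 81.3 CPM (-0.16, from -0.27 to -0.04). It is the only member with pseudogenes named after it, so that its reads could be split. Pseudogenes under other names were not searched for in any member. Ddx18, an RNA helicase (chr1:121553835-121567989, minus strand), had 1169 UMIs or 81.1 CPM in the Renilla and 1115 UMIs or 87.0 CPM in the Jumonji library. Its ratio of 0.10 was the only one above 0, and the interval included 0 (-0.02 to 0.22).

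The 4 genes grouped as general nucleolar made up the largest part of the summed level, 2559 CPM in the Renilla and 1875 CPM in the Jumonji library (log2 -0.45, from -0.47 to -0.43). Npm1, the chaperone nucleophosmin (chr11:33152287-33163206, minus strand), gave 39.3 UMIs per cell in the Renilla and 27.8 in the Jumonji library, at 1658 and 1249 CPM (-0.41, from -0.44 to -0.38). Without Npm1 the members summed to 4062 and 2884 CPM, a ratio of -0.49 (-0.51 to -0.48), so the summed difference over all kept cells does not rest on this gene. Ncl, nucleolin (chr1:86344719-86359400, minus strand), had 607 and 407 CPM (-0.58, from -0.63 to -0.53). Nolc1, a nucleolar scaffold for snoRNPs, had a ratio of -0.58, and the helicase Ddx21 one of -0.25 (-0.35 to -0.15).

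Some members also carry snoRNA genes inside their own span. In GENCODE M21, 8 members (Nop56, Nop58, Dkc1, Wdr43, Tsr1, Ppan, Gnl3 and Ncl) hold 23 snoRNA genes in all, among them Snord57 in Nop56, Snord11 in Nop58 and Snora75 in Ncl. Their median ratio between the libraries was -0.53, and that of the other 32 members -0.43. The ranges overlapped, from -0.78 to -0.35 among the hosts and from -1.30 to 0.10 among the others. The snoRNAs themselves have no poly(A) tail and are not read by this assay.

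The pathway beyond the members was lower as well, by less. Of 105 other ribosome biogenesis factors, 104 were in the matrices and 103 were measured. Their sum was 7232 CPM in the Renilla and 6003 CPM in the Jumonji library (log2 -0.27), with a median ratio of -0.30. A ratio below 0 was found for 88 of 103, against 56.2% of all measured genes. At or below 0.8 of their Renilla level were 51, against 23.5%, and at least 1.5-fold lower were 15, against 7.89%. None was higher by as much. Among 10 other RNA polymerase I genes the median was -0.29, and Rrn3, the initiation factor that recruits the polymerase, was lowest (-0.75), with Ttf1, a termination factor, highest (0.05). Among 10 snoRNP assembly genes the median was -0.39, from Naf1 (-0.60) to Pih1d1 (0.01).

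Among 40 other small subunit factors the median was -0.34, and the 6 past 1.5-fold were Nat10 (-1.14), Pwp2 (-1.09), Tsr2 (-0.89), Ddx10 (-0.78), Nol6 (-0.72) and Wdr46 (-0.61). The helicase gene Ddx52 was highest (0.22). Among 43 other large subunit factors the median was -0.29, and the 7 past 1.5-fold were Noc3l (-1.14), Mdn1 (-0.92), Gnl3l (-0.84), Wdr18 (-0.83), Ddx56 (-0.74), Brix1 (-0.62) and Wdr74 (-0.59). Gnl2, a relative of the member Gnl3, was highest, with an interval above 0 (0.31, from 0.12 to 0.50). The ribosome's own proteins did not follow: 82 cytosolic ribosomal protein genes had a median of -0.06, as all genes had to this precision, 1 was at or below 0.8 of its Renilla level and none higher by as much, and they summed to 342054 and 327011 CPM.

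The MYC network had no common direction, with a median ratio of 0.01 over 9 measured genes. The list holds Myc and its partner Max together with MAX-binding repressors, so its median does not describe either set. Myc itself had 47.4 CPM in the Renilla and 41.0 CPM in the Jumonji library (-0.21, from -0.38 to -0.04). Its partner Max (-0.44), Mga (-0.42) and the repressor Mnt (-0.32, from -0.72 to 0.07) were also below 0. The MAX-binding repressors Mxd1 (5.96 and 11.1 CPM, a ratio of 0.89) and Mxd4 (32.5 and 47.9 CPM, 0.56) were higher in the Jumonji library. Mlx was higher as well (0.23, from 0.08 to 0.38), while Mxi1 (0.01) and Mxd3 (0.22) had intervals that included 0.

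**Figure D2:**
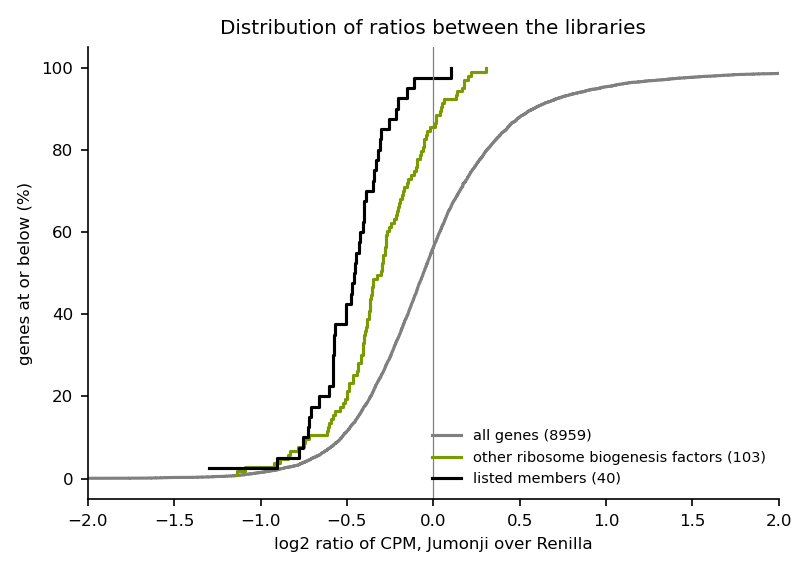
Share of genes (percent, vertical axis) at or below each log2 ratio of Jumonji over Renilla (horizontal axis) for the 40 members (black), 103 other ribosome biogenesis factors (green) and all 8959 measured genes (grey). The black curve passes its midpoint at -0.46, the green at -0.30 and the grey at -0.06.

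The members were lowest in cells called G1, in both libraries. The phase of a cell came from lists of S and G2/M genes that hold no member, after thinning each cell to 10000 UMIs, which left 579 Renilla and 520 Jumonji cells. In the Renilla library the members summed to 4628 CPM in G1, 5685 CPM in S and 5822 CPM in G2/M. In the Jumonji library the values were 2773, 4339 and 4304 CPM. S and G2/M were thus alike in each library (log2 of G2/M over S of 0.03 and -0.01), and G1 stood below both. There were 61 Renilla and 143 Jumonji cells called G1, and 38 and 52 cells lay near a line between phases.

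From G1 to S the median of the measured members was 0.35 higher in log2 in the Renilla and 0.85 higher in the Jumonji library. Of 31 members measured there in the Renilla library, 17 had a G1 level at or below 0.8 of their S level, against 29.8% of all genes, and of 27 in the Jumonji library 22 had, against 30.8%. Members could pass the minimum of 100 UMIs through S alone, where they were high, and among those that passed Rrp1b had the largest step (1.09 and 1.81), on 19 and 26 UMIs in G1. Npm1 hardly took part: it had 1730 CPM in G1 and 1658 CPM in S in the Renilla library, and 1101 and 1241 CPM in the Jumonji library. Nop56, in contrast, had 157 CPM in G1 and 256 CPM in S in the Renilla library, and 71.3 and 211 CPM in the Jumonji library.

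Within each phase the members remained lower in the Jumonji library. In G1 the summed ratio was -0.74 (-0.81 to -0.67), and 16 of 16 measured members were at or below 0.8 of their Renilla level, against 23.1% of all genes. In S it was -0.39 (-0.43 to -0.35), with 22 of 33 members at or below that level against 18.5%, and in G2/M -0.44 (-0.47 to -0.40), with 20 of 33 against 20.4%. The summed ratio was thus below 0 under each call and lowest in G1. Wdr12 was lowest among these 16 members in G1 (-1.35), where it had 102 CPM in the Renilla and 39.9 CPM in the Jumonji library. The maturation list also differed within phases, at 4425 and 11497 CPM in G1 and 3178 and 7074 CPM in S, and its part in the members' difference within a phase was not tested.

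The members were lower in the cells richest in maturation transcripts, in both libraries. Cells of each library were split into 3 equal ranges (low, middle and high) by the share of their UMIs from the maturation genes, and a range of a score is not a cell type. In the Renilla library the members summed to 6384 CPM in the low, 5913 CPM in the middle and 4850 CPM in the high range. In the Jumonji library they summed to 5229, 3848 and 2316 CPM, which makes the high range 2.26-fold lower than the low (log2 -1.17, from -1.21 to -1.14). In the Renilla library that step was -0.40 (-0.42 to -0.37).

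Every member measured across the ranges had a lower value in the high range. In the Renilla library 39 of 39 ratios were below 0, against 62.6% of all genes, with a median of -0.46. Of these members, 30 were at or below 0.8 of their low level, against 22.8% of all genes. In the Jumonji library 34 of 34 were, against 36.0%, with a median of -1.23. There the minimum of 100 UMIs could be passed through the low range alone, where members were high. That range was also the deeper one, at a mean of 29694 UMIs per cell against 14434 in the high range. The count of 34 therefore leaves out rare members. The median over all genes was -0.10 in the Renilla and -0.12 in the Jumonji library, and over the ribosomal protein genes 0.02 and -0.11. Gnl3 had the largest step of the 34 in the Jumonji library (-1.74), at 124.9 CPM in the low, 83.4 in the middle and 37.4 in the high range. In the Renilla library it had 164, 143 and 104 CPM.

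Other members followed the same order with unequal steps. Ncl went from 715 over 627 to 478 CPM in the Renilla library and from 540 over 354 to 215 CPM in the Jumonji library. Npm1 had a small step in the Renilla library (1768, 1670 and 1534 CPM) and a large one in the Jumonji library (1552, 1166 and 754.5 CPM). Ddx18, even between the whole libraries, also had its lowest value in the high range of each, at 91.5, 84.5 and 67.0 CPM in the Renilla and 102, 86.9 and 56.6 CPM in the Jumonji library. The smallest steps of measured members were those of Ltv1 in the Renilla library (-0.06) and Utp14a in the Jumonji library (-0.38).

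Depth and phase moved with the ranges in the Jumonji library. Its cells held a mean of 29694 UMIs in the low, 22665 in the middle and 14434 in the high range, and 14.1%, 22.6% and 52.1% of those with at least 10000 UMIs were called G1. In the Renilla library the means were 23862, 23722 and 23561 UMIs, with 5.21%, 5.76% and 20.4% called G1. In raw counts the median step in the Jumonji library was therefore larger, -2.27, and among cells not called G1 it was -0.75. Split by the single gene Ctss, a maturation protease, with 128 cells that had a UMI against 392 that had none, the step was -0.50, and in the Renilla library, with 16 such cells, -0.18.

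Within ranges of the same rank the libraries lay closest in the low and farthest apart in the high range. The summed ratio was -0.29 (-0.31 to -0.26) in the low range, where 22 of 39 members were at or below 0.8 of their Renilla level against 21.8% of all genes. In the middle range it was -0.62, with 31 of 37 against 26.9%, and in the high range -1.07 (-1.11 to -1.03), with 32 of 34 against 32.4%. In UMIs per cell the low ranges did not differ in that direction, with 152.3 in the Renilla and 155.3 in the Jumonji library, and the high ranges held 114.3 and 33.4. Ranges of the same rank were not equal in maturation share, whose median was 0.231%, 0.296% and 0.391% of UMIs in the Renilla and 0.454%, 0.731% and 1.55% in the Jumonji library. For the 34 members measured in the high range, the minimum of 100 UMIs could be passed through the Renilla cells alone. These cells were deeper there, at a mean of 23561 UMIs against 14434 in the Jumonji library.

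**Figure D3:**
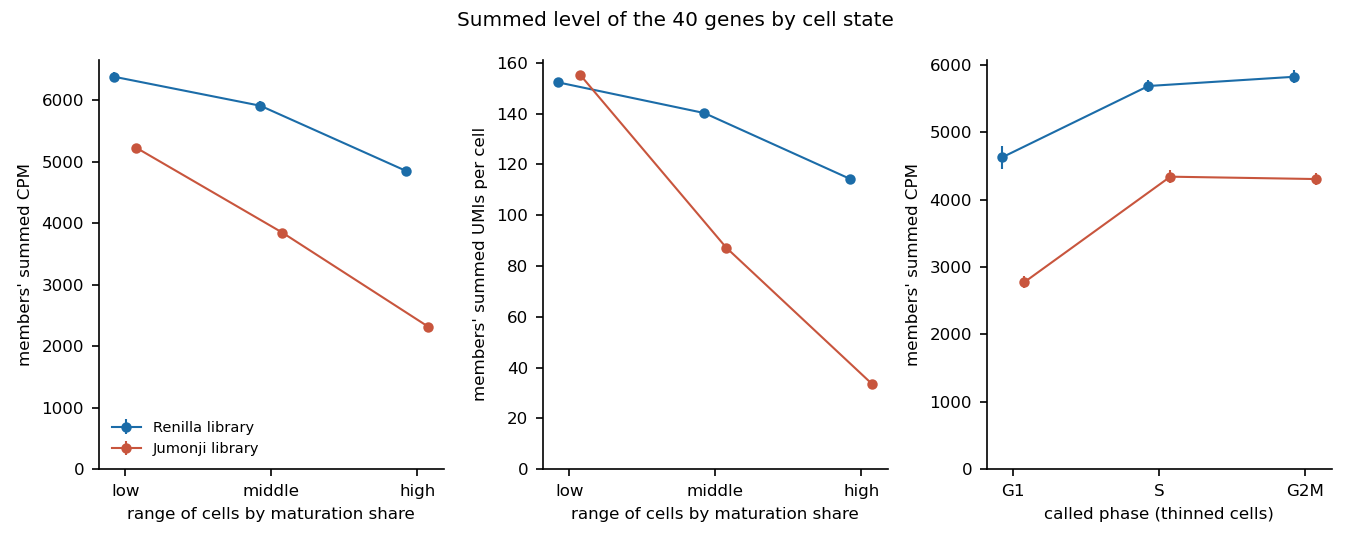
Summed level of the 40 members in CPM (left) and in UMIs per cell (middle) by range of maturation share, and in CPM by called phase of thinned cells (right), for the Renilla (blue) and the Jumonji (red) library, with bars for 95% counting intervals in the outer panels. The lines join values of 1 library; the low ranges meet in UMIs per cell (152.3 and 155.3), and the high range of the Jumonji library is the lowest point in both panels by range.

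At a like share of maturation RNA the members were not lower in the Jumonji library. This comparison was added after the values by range were known, with cells of both libraries put in 3 bins where the libraries overlap. Between 0.3 and 0.4% of UMIs the members summed to 5421 CPM in 207 Renilla cells and 6043 CPM in 37 Jumonji cells, a ratio of 0.16 (0.12 to 0.20). Between 0.4 and 0.5% they summed to 4702 CPM in 47 and 5135 CPM in 81 cells (0.13, from 0.08 to 0.18), and between 0.5 and 0.7% to 3842 CPM in 20 and 4432 CPM in 140 cells (0.21, from 0.13 to 0.28). The Jumonji library was higher in each bin. In UMIs per cell the members gave 133.9 (Renilla) and 189.6 (Jumonji), 108.2 and 153.4, and 78.5 and 118.1 in the 3 bins. These gaps were wider than those in CPM, so the Jumonji cells in the bins were deeper. The members' level went with depth across cells (Spearman correlation of 0.22 in the Renilla and 0.50 in the Jumonji library), and the part of depth in this turn was not tested.

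The single members showed the same turn. Ratios below 0 were found for 7 of 34, 6 of 31 and 7 of 31 measured members in the 3 bins, and the median ratios were 0.16, 0.13 and 0.33, beside 0.02, 0.09 and 0.18 over all genes. Averaged over the bins, 6 of 40 members were below 0. No share over all genes stands beside these counts, so they are not read as particular to the members. The medians over all genes were also above 0, and in the second bin the members' median was near that of all genes. Cells called G1 made up 9.45% and 10.8% of the Renilla and Jumonji cells in the first bin, 22.2% and 7.41% in the second, and 61.1% and 21.6% in the last. The maturation genes themselves differed between the libraries, so an equal share need not be an equal state, and the last bin held only 20 Renilla cells.

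**Figure D4:**
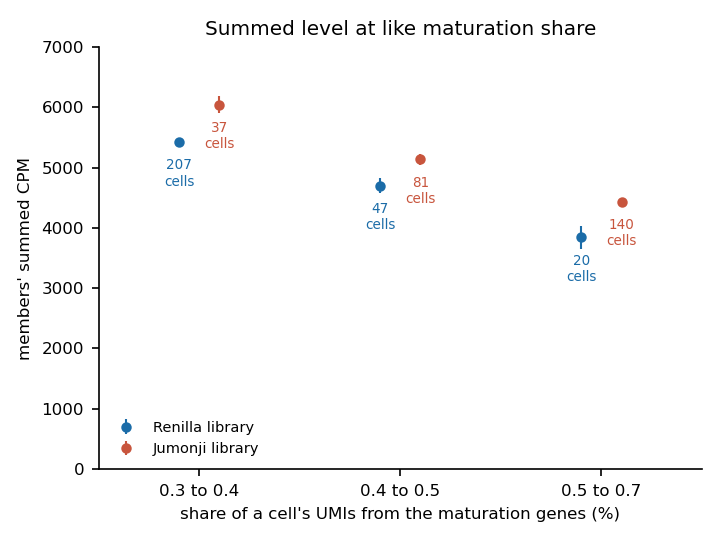
Summed level of the 40 members in CPM (vertical axis, from 0) in 3 bins of the share of a cell's UMIs that came from the maturation genes (horizontal axis, percent), for the Renilla (blue) and the Jumonji (red) library, with bars for 95% counting intervals and the number of cells under each point. The red point lies above the blue in each bin, and both go down as the share goes up.

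Within clusters of cells the summed ratio was nearer to 0 in clusters 1, 2 and 3 than over all kept cells. In cluster 5 it was about as low as within S when Npm1 was counted. The clusters were built jointly without the members, the other factors, the phase and maturation lists, genes at least 1.5-fold apart between the libraries, and mitochondrial and ribosomal protein genes (5668 genes in all), and 4 of 5 held at least 20 cells of each library. The summed ratio was -0.21 (-0.24 to -0.18) in cluster 1, at 6003 and 5190 CPM in 185 Renilla and 139 Jumonji cells. It was -0.17 (-0.22 to -0.13) in cluster 2, at 4206 and 3730 CPM in 57 and 205 cells. In cluster 3 it was -0.10 (-0.14 to -0.07), at 6173 and 5750 CPM in 166 and 52 cells, and in cluster 5 -0.39 (-0.48 to -0.31), at 3100 and 2358 CPM in 24 and 162 cells. Without Npm1 the summed ratios were -0.21, -0.10, -0.09 and -0.27 (-0.38 to -0.16) in clusters 1, 2, 3 and 5, and -0.38 within S.

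Member by member, the counts in clusters 2 and 3 lay under the share of all genes, and those in clusters 1 and 5 above it. At or below 0.8 of their Renilla level were 9 of 35 measured members in cluster 1 (15.3% of all genes), 4 of 34 in cluster 2 (13.4%), 5 of 37 in cluster 3 (17.4%) and 5 of 13 in cluster 5 (12.6%). The median ratios were -0.20, -0.04, -0.10 and -0.15, beside -0.01, 0.04, 0.00 and 0.14 over all genes. Of the 13 members measured in all 4 clusters, 7 had a ratio below 0 in each (Fbl, Gar1, Nhp2, Wdr12, Ncl, Npm1 and Nolc1), against 17.6% of the 3024 genes measured in all 4. The maturation list still differed within clusters, at 3187 and 6103 CPM in cluster 1 and 5814 and 12780 CPM in cluster 5. Cluster 5 was the shallowest, with a median of 14481 UMIs, and 123 of its 144 cells with a call were called G1.

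**Figure D5:**
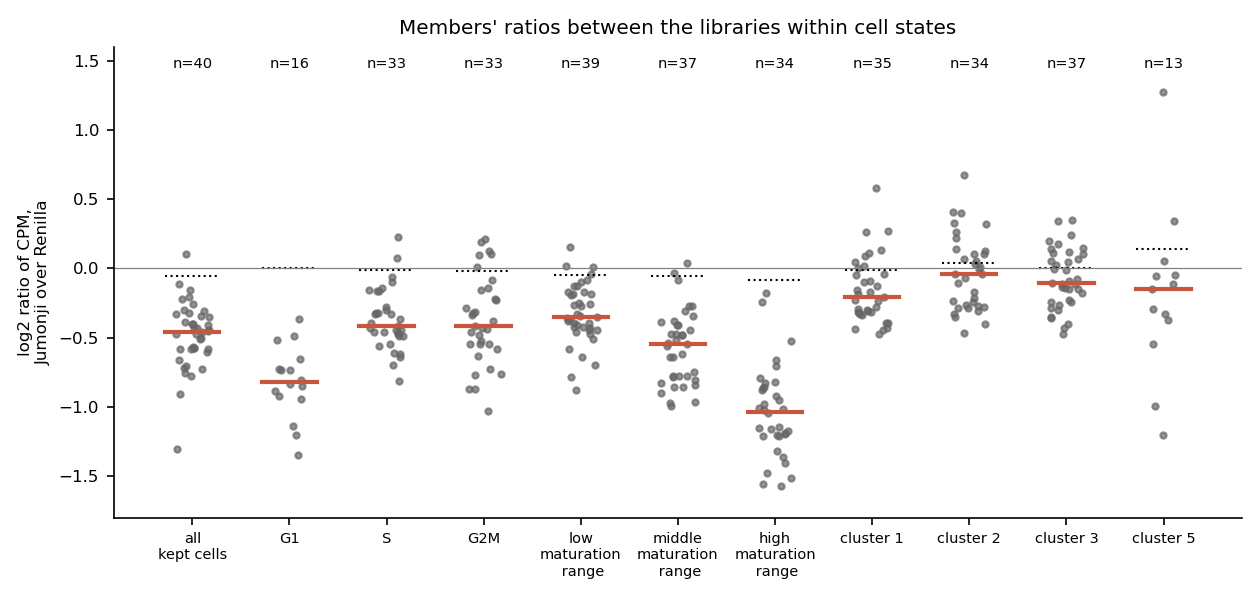
Log2 ratio of CPM, Jumonji over Renilla (vertical axis), of each measured member (grey points) over all kept cells, within called phases, within ranges of the same rank and within clusters, with the members' median as a red bar, the median of all genes as a dotted line, and the number of members above each column. The red bars run from -1.03 in the high range to -0.04 in cluster 2.

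Across single cells the summed level of the members spread more widely than counting alone gives. In cells thinned to 10000 UMIs their sum had a median of 56 UMIs per cell in the Renilla library (from 11 to 112) and 38 in the Jumonji library (from 4 to 104). The variance over the mean of that sum was 4.97 and 8.13, where counting alone gives 1. For single members the same measure had a median of 1.14 and 1.17, and it was highest for Ncl in the Renilla library (2.23) and for Npm1 in the Jumonji library (2.92). Each member's Spearman correlation with the sum of the others, over 579 and 520 cells, was above 0 for 40 of 40 members in both libraries, with medians of 0.22 and 0.28 and the highest value for Ncl (0.48 and 0.62). Npm1, the most abundant member, had only 0.15 in the Renilla and 0.43 in the Jumonji library. Cells of a library share its preparation and each UMI taken by one gene is lost to others, so these correlations are descriptions. No share over all genes stands beside the count of 40, so it is not read as particular to the members.

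The summed level of the members went with that of the other ribosome biogenesis factors (Spearman correlation across cells of 0.72 in the Renilla and 0.80 in the Jumonji library). It went against the maturation share (-0.39 and -0.69) and with the cell's depth before thinning (0.22 and 0.50). With the ribosomal protein genes the correlation was -0.48 and -0.11, and these genes take a large part of the fixed total of UMIs. With Myc UMIs in the same cell it was 0.04 and 0.10, in counts too sparse to read a relation from.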

How the data were processed

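The deposited values are raw UMI counts per gene and cell barcode, 1 matrix per library; per the labels' protocols the authors made the libraries with the 10x Genomics 3′ kit with version 2 chemistry and processed them with Cell Ranger 1.3.1 and mm10, named in the submitters' processing notes. The rule that called barcodes as cells is not given in the sources used here. Of 651 Renilla and 652 Jumonji barcodes, 608 and 575 were kept by a minimum of 500 genes and a mitochondrial limit of 10% of UMIs, and the 43 and 77 others all failed on the latter. Scrublet marked 9 and 5 kept cells as doublets, which stayed in. Counts were summed per library and scaled to CPM. Ratios have exact conditional binomial intervals, levels have exact Poisson intervals, and a 0 was set to a floor of 3 counts. Phases were scored with scanpy 1.11.5 on thinned cells; 29 Renilla and 55 Jumonji cells were too shallow. Clusters used 2000 variable genes, 30 components, 15 neighbours and leidenalg 0.10.2 at resolution 0.6. The ratio and its interval were tested on simulated data. The simulated counts held counting error only, so this check does not cover the wider spread between cells. Alternatives covered filters, doublets, thinning, scaling, cell weights and cell states. The rule for names took all members, other factors past 1.5-fold and the extremes of each list, the MYC network and Jmjd1c; genes of the maturation, granule and marker lists served as checks. The members, lists and settings were chosen with earlier results of these data known. A symbol with several identifiers (Itgam) was left out. Gene coordinates are from GENCODE M21 on mm10. Those of the promoter stretches are from the RefSeq windows on GRCm38.p6, whose starts can differ from the GENCODE starts, as for Wdr43.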

Additional observations from a re-analysis of the deposited data

How the results depend on the processing

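Of 440 values, 40 members under 11 settings, 385 were below 0. Filters, doublets, thinning, scaling, cell weights and leaving out cells called G1 each left 39 of 40 members below 0, and averaging within phases 38. Averaging within clusters left 29. Of the members at or below 0.8 of their Renilla level over all kept cells, those then above 0 were Polr1e 0.021, Nop58 0.049, Rrp9 0.00049, Nob1 0.019 and Rrp1b 0.16. The others above 0 were Utp14a 0.0068, Nop14 0.096, Rrp12 0.33, Mrto4 0.21, Ddx18 0.60 and Ddx21 0.12. Averaging within bins of like maturation share, a setting added after seeing the data, left 6 and moved the median from -0.46 to 0.29. Of the members at or below 0.8 over all kept cells, those then above 0 were Polr1a 0.33, Polr1c 0.089, Polr1e 0.66, Nop56 0.25, Nop58 0.40, Rrp9 0.46, Dkc1 0.32, Gar1 0.32, Nhp2 0.11, Wdr43 0.21, Wdr75 0.37, Heatr1 0.36, Utp15 0.13, Utp20 0.40, Pno1 0.036, Tsr1 0.62, Bysl 0.069, Nob1 0.29, Pes1 0.14, Nop2 0.21, Rrp1b 0.37, Nip7 0.026, Gnl3 0.42, Ncl 0.28, Npm1 0.047, Nolc1 0.52. The others above 0 were Utp14a 0.31, Nop14 0.48, Rrp12 0.32, Ltv1 0.070, Bop1 0.28, Mrto4 0.48, Ddx18 0.75 and Ddx21 0.34. A first version, cells up to 0.333% maturation share, was replaced because it held 407 Renilla but 13 Jumonji cells; it gave a median of -0.060, 24 below 0, 10 at or below 0.8 and 3 at least 1.5-fold lower, and for the other factors -0.10 and 33. Averaging only over states with at least 100 UMIs of a gene, also chosen after seeing values, gave medians of -0.49 (phases), -0.10 (clusters) and 0.21 (bins). The members' median was -0.19 within clusters and -0.40 without G1. Members at or below 0.8 of their Renilla level numbered 6 within clusters and 1 within bins, and members 1.5-fold lower 17 after thinning, 17 in raw UMIs per cell, 18 with equal weight per cell, 16 within phases, 1 within clusters and 0 within bins. For the other factors the median was -0.26 under median of ratios scaling, -0.39 raw, -0.38 with equal weight per cell, -0.010 within clusters, 0.21 within bins and -0.24 without G1; 53 and 24 were below 0 within clusters and bins, 11 and 4 at or below 0.8, and 4 and 2 at least 1.5-fold lower. The step from the low to the high range was -0.33 (Renilla) and -1.10 (Jumonji) with a log-scaled score, -0.36 and -0.75 without G1, -0.18 (15 members at or below 0.8) and -0.50 by Ctss, and -2.27 raw in the Jumonji library. Raw counts gave G2/M over S of 0.34 (Renilla) and 0.17 (Jumonji) and S over G1 of 1.2 (Jumonji). The E-box before the start was found in 1 member. The cause of these moves was not tested. No paired analysis was possible because each condition has 1 library, and for the same reason no library could be left out. Depth limits rare members such as Heatr1 and Polr1b most, and within phases and clusters many members fell under the minimum of 100 UMIs. Guide, culture, library preparation and cell make-up cannot be told apart in this design.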

Other observations

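The barcodes excluded for a mitochondrial share over 10% held few UMIs, a mean of 5874 in the 43 Renilla and 5478 in the 77 Jumonji barcodes. The members summed to 6168 CPM in the excluded Renilla barcodes, beside 5720 CPM in the kept cells. In the excluded Jumonji barcodes they summed to 3440 CPM, beside 4133 CPM in the kept cells. The maturation genes summed to 3824 CPM in the excluded Renilla and 15965 CPM in the excluded Jumonji barcodes. Cluster 4, with 176 Renilla and 17 Jumonji cells, was too small on 1 side to enter the comparison within clusters. The members there summed to 5737 CPM in the Renilla and 5625 CPM in the Jumonji cells.

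Inside the ranges of maturation share, cells called S and G2/M kept the order of the whole ranges. In thinned S cells the members summed to 6177, 5827 and 5020 CPM from the low to the high range of the Renilla library and to 5206, 3802 and 2764 CPM in the Jumonji library. In the high range, cells called G1 held 3855 CPM in the Renilla (40 cells) and 1888 CPM in the Jumonji library (74 cells), the lowest summed level of any group of cells that was formed.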
